A study of Mus musculus with 60 samples.

Results

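Complement and coagulation proteins are a set of 38 genes, 16 of complement and 22 of coagulation, among the 23126 genes of the deposited hepatocyte table. The members were chosen by symbol, as plasma proteins of these systems that hepatocytes make, with earlier results of these data known. Every symbol was found once in the table. All 38 members passed the filter of a mean above 1 ppm over the 60 libraries, which left 11135 genes to test. They are described in primary hepatocytes of 8-week-old male C57BL/6J offspring of fathers that drank nicotine (NIC) or tartaric acid (TA), 10 animals per father. The labels name no engineered allele, and the exposure was the fathers'.

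Cells were released from the perfused liver with collagenase and plated for adhesion before time 0. A time course of 5 NIC and 5 TA animals was harvested at 0, 1, 3 and 21 h in medium with dexamethasone, a synthetic glucocorticoid. A further 10 libraries at 21 h, with dexamethasone by their labels and named none in the table, came from 9 of these animals, 2 of them from NIC animal 11 and 0 from NIC animal 14. How these cultures differed from the others at 21 h is not given in the sources used here, and they are called 21 h none below. A further 2 NIC and 2 TA animals were harvested at 2 h with dexamethasone, and 3 NIC and 3 TA animals at 2 h without it, both in medium with the solvent DMSO. Each library was a separate culture, and p-values measure the spread between these cultures and animals.

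Complement is a cascade of plasma proteases and adaptors that tags microbes and damaged cells and ends in a pore of the terminal proteins. Coagulation is a second protease cascade, in which zymogens activated one after another turn prothrombin into thrombin and fibrinogen into fibrin, with anticoagulants and plasmin as brakes. The liver parenchyma is the main source of most proteins of both systems, and several of them are acute phase proteins. A freshly isolated hepatocyte in culture commonly loses part of its liver-specific expression.

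The members are scattered over the mouse genome with 6 clusters of neighbours. Neighbours less than 100 kb apart in GENCODE M21 (GRCm38) comprised 16 of the 38 members. The fibrinogen chain genes Fgg, Fga and Fgb share chr3:83007724-83049863. Klkb1, encoding plasma prekallikrein, lies beside its paralogue F11 at chr8:45241174-45294859. Ahsg, Fetub, Hrg and Kng1, which encode cystatin-type plasma proteins, lie with Kng2 at chr16:22891277-23082078. F7, F10 and Proz lie at chr8:13026034-13076026, C8b and C8a at chr4:104766317-104876398, and Cfb and C2 at chr17:34856374-34898265.

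Promoters of 6 members are shown because their genes moved differently in culture with all libraries: F5, Fgb, Fgg and C3 were lower at 21 h, and F9 and Pros1 did not pass the test. Without the 21 h libraries of NIC animals 14 and 15, described below, C3 did not pass and F9 did. Each is the 150 bases before the gene start, from RefSeq on GRCm38, written 5′ to 3′ on the gene's strand. Capitals mark matches to GTTAAT (a half-site of HNF1, a liver transcription factor), TTGCNNAA (C/EBP, another) or CTGGGAA (the core of an interleukin-6 response element), on either strand.
F5, chr1:164151685-164151834, plus strand: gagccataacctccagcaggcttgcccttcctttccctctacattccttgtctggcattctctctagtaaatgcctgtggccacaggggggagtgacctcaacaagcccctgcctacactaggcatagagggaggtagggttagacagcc
Fgb, chr3:83049864-83050013, minus strand: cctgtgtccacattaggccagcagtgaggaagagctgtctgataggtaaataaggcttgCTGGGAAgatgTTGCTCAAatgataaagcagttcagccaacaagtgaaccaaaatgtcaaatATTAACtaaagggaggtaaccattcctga
Fgg, chr3:83007574-83007723, plus strand: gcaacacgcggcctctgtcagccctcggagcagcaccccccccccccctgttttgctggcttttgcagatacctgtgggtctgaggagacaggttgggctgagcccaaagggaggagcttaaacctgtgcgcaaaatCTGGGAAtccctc
C3, chr17:57228137-57228286, minus strand: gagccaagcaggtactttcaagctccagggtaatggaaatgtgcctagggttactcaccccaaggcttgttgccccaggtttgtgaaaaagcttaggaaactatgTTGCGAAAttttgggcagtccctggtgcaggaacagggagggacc
F9, chrX:59999314-59999463, plus strand: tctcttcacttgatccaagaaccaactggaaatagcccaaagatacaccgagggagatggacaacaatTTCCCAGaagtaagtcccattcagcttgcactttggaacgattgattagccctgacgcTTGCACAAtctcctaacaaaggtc
Pros1, chr16:62854157-62854306, plus strand: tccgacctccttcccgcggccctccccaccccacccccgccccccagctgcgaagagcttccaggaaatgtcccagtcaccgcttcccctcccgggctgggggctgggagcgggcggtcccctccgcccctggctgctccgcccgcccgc

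The Fgb window held a match to each of these letter patterns, and the F5 and Pros1 windows held none. The GC content of the Pros1 window was 76.7%, the highest of the 30 members with a listed promoter. The median of these members was 49.0%, against 54.0% over all genes (n = 32851 for this value). Over the 250 upstream bases, on both strands, GTTAAT was found in 9 of the 30 promoters (30.0%, against 7.49% of 27025 genes), and its members were Hc, C8a, C8b, C4bp, Fga, Fgb, Proz, F13b and Vtn. TTGCNNAA was found in 9 (30.0%, against 10.8% of all genes), among them C3, Fga, Fgb, F9 and Klkb1. The glucocorticoid receptor half-site TGTTCT was found in 11 (36.7%, against 18.2%), CTGGGAA in 5 (16.7%, against 10.4%) and the TATA box letters TATAAA in 4 (13.3%, against 14.3%). AAAGTCCA, a form of the HNF4 site, was found in 0 of 30, against 1.19% of all genes. A match describes the letters in the window, not a bound site.

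At 0 h the members differed widely in level. Values of the time course are in ppm, a share of each library's total, on a scale that behaves as divided by gene length. Fgb, the fibrinogen beta chain, was the highest at 9192 ± 2188 ppm (SD, n = 10), followed by Ahsg (fetuin-A, a mineral-binding protein) at 6920 ± 766 ppm, Fgg at 5486 ± 1564 ppm and Fga at 3855 ± 1032 ppm. The ranges of neighbours in this order overlapped, and the mean of Fgb was above that of Fgg and that of Fgg above that of Fga at every time of the course. C3, the central component on which all complement pathways converge, led its arm at 2851 ± 393 ppm. The lowest members were F11 (factor XI) at 53.5 ± 20.4 ppm and Pros1 (protein S, a cofactor of activated protein C) at 45.5 ± 9.34 ppm, which did not differ beyond their spread.

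Together the 38 genes made up 4.55% of the ppm at 0 h, 4.41% at 1 h, 4.31% at 3 h and 3.11% at 21 h (means of 10 libraries), and 2.72% in the 21 h none cultures. The summed level was 31104 ± 3446 ppm at 21 h, against 45451 ± 5084 ppm at 0 h (SD, n = 10 each). The highest 21 h library, at 37899 ppm, was below the lowest 0 h library, at 38244 ppm. The complement genes summed to 7109 ± 1218 ppm at 21 h, against 10224 ± 794 ppm at 0 h. The coagulation genes summed to 23995 ± 2760 ppm at 21 h, against 35226 ± 4687 ppm at 0 h, of which the 3 fibrinogen chains made up 12798 ppm at 21 h, against 18533 ppm at 0 h. In the 2 h cultures the members summed to 44600 to 48366 ppm with dexamethasone (4 libraries) and to 37014 to 44322 ppm without it (6 libraries). These 2 sets are not compared, because the libraries with dexamethasone were scaled without a division by length.

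Hepatocyte markers were high in every library, and 9 of the 10 listed were in the table. Their sum lay between 71908 and 185690 ppm over the time course. The 21 h libraries of NIC animals 14 and 15 stood apart. Their Kupffer cell and macrophage markers summed to 1593 and 1536 ppm, against 189 to 499 ppm in the other 8 libraries at 21 h. Their stellate cell and fibroblast markers summed to 1338 and 2044 ppm, against 8.27 to 91.9 ppm, and their sinusoidal endothelial markers to 344 and 458 ppm, against 36.5 to 154 ppm. Not every marker was present even there: Timd4 was at 0 in animal 14, Vsig4 in animal 15 and the stellate marker Des in both. They also had few genes above 0, 9073 to 11716 together with the 21 h library of NIC animal 11, against 11058 to 15157 in the other time course libraries. Comparisons that use the 21 h cultures are therefore also given without these 2 libraries, a choice made after the data were seen. In bulk RNA, fewer hepatocytes and less RNA per hepatocyte cannot be told apart.

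The first hours of culture were compared with 0 h to ask how early the plasma protein genes moved. After 1 h, 0 of the 38 members passed the limma test at an adjusted p of 0.05, where 0.00898% of all genes did. An unadjusted p under 0.05 was found for 2 members and for 404 of all 11135 genes. Fetub, fetuin-B, had 212, 250 and 312 ppm (lowest, median and highest of 10 libraries) at 1 h, against 232, 296 and 397 ppm at 0 h. The groups overlapped, and the log2 difference was -0.26 (SE 0.10, adjusted p = 1). C3 had 1743, 2456 and 2686 ppm at 1 h, against 2004, 2842 and 3453 ppm at 0 h, a difference of -0.26 (SE 0.13, adjusted p = 1). C3 was lower in 10 of 10 animals, as were F10, Plg and Vtn. No share over all genes is given for this count at 1 h. The smallest p among members above 0 belonged to Cpb2 (a carboxypeptidase that slows fibrinolysis), at 0.11 (SE 0.10), and C8g (the gamma chain of complement component 8), at 0.10 (SE 0.13).

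After 3 h, 0 of 38 members passed, where 0.108% of all genes did. An unadjusted p under 0.05 was found for 3 members, all lower, and for 993 of all 11135 genes in either direction. Fetub had 185, 260 and 322 ppm at 3 h, against the 0 h values above, a difference of -0.23 (SE 0.10, adjusted p = 0.474). F5, the cofactor of the prothrombin-cleaving complex, had 82.1, 170.1 and 238 ppm at 3 h, against 136, 216 and 280.4 ppm at 0 h, a difference of -0.40 (SE 0.18, adjusted p = 0.496). Both were lower in 8 of 10 animals. On the positive side F9 (factor IX) differed by 0.07 (SE 0.13) and C8g by 0.05 (SE 0.13). The member median was -0.11 at 3 h and -0.03 at 1 h, beside -0.09 and -0.07 over all genes tested. When only the 2 cultures were fitted, Klkb1 (adjusted p = 0.0499) and Plg (adjusted p = 0.0425) passed limma at 3 h, where 7.83% of all genes did, and C3 (adjusted p = 0.033) passed at 1 h, where 2.02% did. Within animals Klkb1 changed by -0.33 ± 0.12 and Plg by -0.27 ± 0.12 at 3 h (SD, n = 10), both lower in 10 of 10 animals, as were C8a and Vtn, where 3.48% of all genes were. These genes were chosen after their values were seen. The count test was not run on these libraries, since whole reads could not be recovered from them.

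After 21 h both arms had declined. In the 21 h cultures against the 0 h cultures, 33 of 38 members were lower and 0 higher (limma, adjusted p under 0.05), 14 of 16 of complement and 19 of 22 of coagulation, where 21.6% of all genes were lower. The member median was -0.69 on the log2 scale, a fold of 0.62, beside a median of 0.12 over all genes tested. The complement median was -0.73 and the coagulation median -0.67. The changes ran from -1.59 for Klkb1 to 0.04 for Pros1. Of the members, 24 were lower at 21 h in 10 of 10 animals (9 of complement and 15 of coagulation), where 7.88% of all genes were. The cultures were prepared on 2 dates, and 28 members were lower at 21 h in the animals of date A alone and 31 in those of date B alone. No share over all genes is given for single dates, so these counts describe the members only. An exact two-sided sign permutation of the 10 within-animal differences gives each of the 24 its smallest p, 0.00195. This p follows from the shared sign in 10 of 10 animals and adds nothing to that count.

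**Figure D1:**
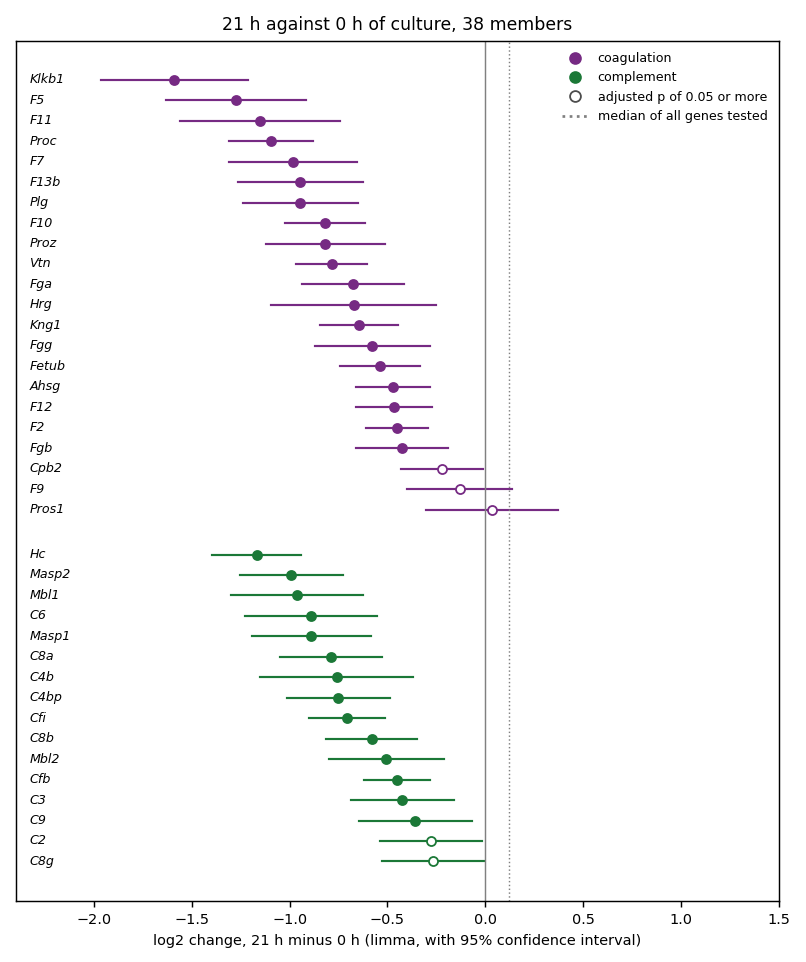
Change of each of the 38 members in the 21 h cultures against the 0 h cultures, as a log2 difference from limma with its 95% confidence interval on the horizontal axis, ordered by arm. Of the 38 points, 37 lie below 0, from -1.59 for Klkb1, and Pros1 lies at 0.04.

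Within complement, 4 of 4 lectin pathway genes were lower with all libraries, where 21.6% of all genes were. Mbl1 and Mbl2, mannose-binding lectins that recognise microbial sugars, changed by -0.96 (SE 0.17) and -0.51 (SE 0.15), and their proteases Masp1 and Masp2 by -0.89 (SE 0.15) and -0.99 (SE 0.13). The group median was -0.93, with 4 of 4 passing. Without the 21 h libraries of NIC animals 14 and 15, Mbl2 had -0.24 (limma, adjusted p = 0.0967) and did not pass. In the convertase group 3 of 4 passed, with a median of -0.44: C4b (component 4, cleaved by the lectin and classical proteases) at -0.76 (SE 0.19), Cfb (factor B, the protease of the alternative pathway convertase) at -0.45 (SE 0.08) and C3 at -0.42 (SE 0.13), while C2, the protease of the classical convertase, had -0.28 (SE 0.13, adjusted p = 0.068). Among the soluble regulators, Cfi (factor I, which cleaves C3b and C4b) fell by 0.71 (SE 0.10) and C4bp (its cofactor for C4b) by 0.75 (SE 0.13).

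Hc, which encodes complement component 5, had the smallest p of its arm. It had 238, 309.5 and 486 ppm at 21 h, against 601, 716 and 828 ppm at 0 h (lowest, median and highest of 10 libraries). The highest 21 h library was below the lowest 0 h library, and the log2 change was -1.17 (SE 0.11, adjusted p = 3.7e-12). The other terminal genes, whose products insert into membranes with C5b, were C6 at -0.89 (SE 0.17), C8a at -0.79 (SE 0.13), C8b at -0.58 (SE 0.12) and C9 at -0.36 (SE 0.14), and C8g had -0.27 (SE 0.13, adjusted p = 0.082). The C8 chains thus ranged from -0.79 to -0.27 although their products form 1 complex.

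C3, the most abundant complement member, had 1009, 2245 and 3282 ppm at 21 h, against 2004, 2842 and 3453 ppm at 0 h. The 2 lowest C3 values at 21 h, 1009 and 1063 ppm, came from NIC animals 14 and 15, whose libraries carried the high macrophage, endothelial and stellate markers, and the other 8 libraries had 2154 to 3282 ppm. The log2 change of -0.42 (SE 0.13) passed with an adjusted p of 0.0063. Without these 2 libraries it was -0.19 (SE 0.12, adjusted p = 0.176), and the C3 call was lost.

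Within coagulation, 4 of 4 members of the contact system fell, with a median of -0.90. Klkb1, plasma prekallikrein, had 24.2, 78.8 and 140.2 ppm at 21 h, against 155, 239.6 and 269 ppm at 0 h. The groups did not overlap, and the change of -1.59 (SE 0.19, adjusted p = 7.6e-10) was the lowest of all members. F11 changed by -1.15 (SE 0.20), Kng1 (high molecular weight kininogen, the source of bradykinin) by -0.65 (SE 0.10) and F12 (factor XII, which starts the contact pathway) by -0.47 (SE 0.10).

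With all libraries the vitamin K dependent genes split. Proc encodes protein C, which inactivates factors V and VIII, and had 107, 134 and 273 ppm at 21 h, against 279.6, 294 and 363 ppm at 0 h. The highest 21 h value was below the lowest at 0 h, and the change was -1.10 (SE 0.11, adjusted p = 3.6e-12). Proz (protein Z, a cofactor for inhibition of factor Xa) changed by -0.82 (SE 0.15), while Pros1 had 22.4, 38.4 and 113 ppm at 21 h, against 26.7, 48.3 and 56.2 ppm at 0 h, with 0.04 (SE 0.17, adjusted p = 0.88). Among the procoagulants, F7 (factor VII, partner of tissue factor) changed by -0.98 (SE 0.16), F10 (factor X) by -0.82 (SE 0.10) and F2 (prothrombin) by -0.45 (SE 0.08). F9 had 86.1, 193 and 461 ppm at 21 h, against 178, 216 and 236 ppm at 0 h, with -0.13 (SE 0.13, adjusted p = 0.42). Both Pros1 and F9 spread more widely at 21 h than at 0 h, and their highest libraries at 21 h were that of NIC animal 14. Without the 21 h libraries of NIC animals 14 and 15, F9 had -0.31 (limma, adjusted p = 0.0256) and Pros1 -0.25 (adjusted p = 0.172).

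The fibrinogen chains moved in parallel by smaller amounts, with 3 of 3 passing. Fgb had 5522, 6559 and 8622 ppm at 21 h, against 6345, 8457 and 12734 ppm at 0 h, a change of -0.43 (SE 0.12, adjusted p = 0.0021). Fgg had 1867, 3788 and 5562 ppm at 21 h, against 3595, 4903 and 7920 ppm at 0 h, a change of -0.58 (SE 0.15, adjusted p = 0.00093). Fga had 1501, 2490 and 3228 ppm at 21 h, against 2418, 3632 and 5790 ppm at 0 h, a change of -0.67 (SE 0.13, adjusted p = 2.4e-05). The levels of each chain at 21 h overlapped those at 0 h.

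F5 fell by 1.28 (SE 0.18) and F13b, the carrier of the fibrin-crosslinking factor XIII, by 0.94 (SE 0.16). In the fibrinolysis group Plg (plasminogen, the zymogen of plasmin) changed by -0.94 (SE 0.15) and Hrg (histidine-rich glycoprotein, which binds plasminogen and heparin) by -0.67 (SE 0.21), and Cpb2 had -0.22 (SE 0.10, adjusted p = 0.07). Vtn encodes vitronectin, an adhesion protein that also restrains the terminal complement complex. It had 993, 1371 and 1649 ppm at 21 h, against 1779.5, 2350.2 and 2687 ppm at 0 h, without overlap, a change of -0.79 (SE 0.09, adjusted p = 4.6e-10). Ahsg changed by -0.47 (SE 0.09) and Fetub by -0.54 (SE 0.10).

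**Figure D2:**
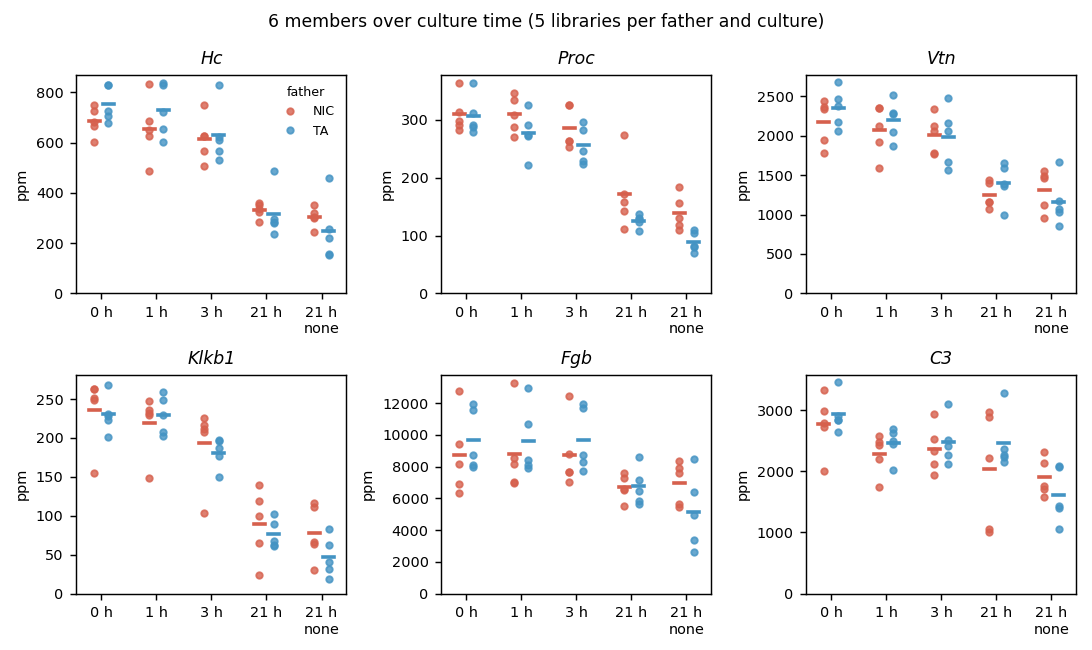
Level in ppm of 6 members in each of the 50 time course libraries, with culture on the horizontal axis from 0 h to 21 h and 21 h none, NIC left of TA, points for libraries and lines for group means. The 21 h points of Hc, Proc, Vtn and Klkb1 lie below their lowest 0 h points, while those of Fgb and C3 overlap them.

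In 10 members the highest 21 h library was below the lowest 0 h library, where 2.37% of all genes showed this. They were Masp2, Hc and Cfi of complement and F2, F10, Proc, Klkb1, Kng1, F5 and Vtn of coagulation. Level at 0 h and change at 21 h had a Spearman rho of 0.29 across the 38 genes, which share all libraries and are not independent. Within the clusters of neighbours, changes ranged from -0.67 to -0.43 for the fibrinogen genes, from -0.98 to -0.82 for F7, F10 and Proz, and from -1.59 to -1.15 for Klkb1 and F11.

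The 2 arms were set beside each other within each animal. The mean log2 change of the 16 complement genes was -0.67 ± 0.20 and that of the 22 coagulation genes -0.71 ± 0.17 (SD over 10 animals), and both were negative in 10 of 10 animals. Their difference, complement minus coagulation, was 0.04 ± 0.16 and ran from -0.35 to 0.21, below 0 in 3 animals. It was positive in 5 of 5 TA animals, with 0.12 ± 0.07, and below 0 in 3 of 5 NIC animals, with -0.04 ± 0.19. The lowest NIC values, -0.35 and -0.05, were those of animals 15 and 14, whose hepatocyte markers changed by -1.18 and -0.98 on average. Without these 2 animals the difference was 0.07 ± 0.09 in NIC (SD, n = 3) and 0.10 ± 0.08 over both fathers (SD, n = 8), below 0 in 1 animal, and the fathers were not tested against each other. Over the same animals the mean change of the hepatocyte markers was -0.53 ± 0.36, and 6 of these 9 markers were lower at 21 h (median -0.39), among them Cps1 at -1.73. Alb (albumin), at 0.09 (SE 0.11), and Serpina1c, at 0.09 (SE 0.11), did not pass. Without the 21 h libraries of animals 14 and 15, 5 of the markers were lower (median -0.24) and Serpina1c was higher, at 0.32 (SE 0.09, adjusted p = 0.0026). The part of a shared loss of hepatocyte RNA in the members' change was not tested.

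**Figure D3:**
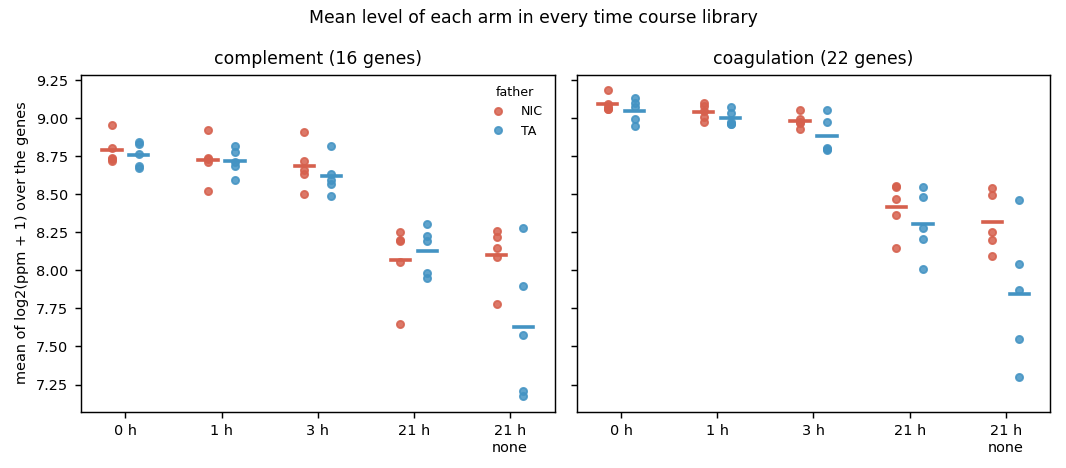
Mean of log2(ppm + 1) over the 16 complement genes (left) and the 22 coagulation genes (right) in each of the 50 time course libraries, by culture and father, with NIC left of TA. Both arms lie lower at 21 h than at 0 h in every animal, and the lowest libraries are TA animals 1 and 2 among the 21 h none cultures.

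Without the 21 h libraries of NIC animals 14 and 15, 31 of 38 members were lower at 21 h, 11 of complement and 20 of coagulation, where 22.4% of all genes were. Hc at -1.17, Proc at -1.12, Klkb1 at -1.69 and Vtn at -0.76 were close to their values with all libraries. The calls of C3, Mbl2 (-0.24, adjusted p = 0.0967) and C9 (-0.22, adjusted p = 0.162) were lost, and that of F9 was gained (-0.31, SE 0.12, adjusted p = 0.0256). Pros1 turned to -0.25 (SE 0.15, adjusted p = 0.172). The complement median was -0.65 and the coagulation median -0.69, so the order of the 2 medians was reversed by leaving out these libraries. By mean per animal, coagulation was the lower arm also with all libraries (-0.71, against -0.67). That difference of 0.04 was within its spread between animals (SD 0.16).

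**Figure D4:**
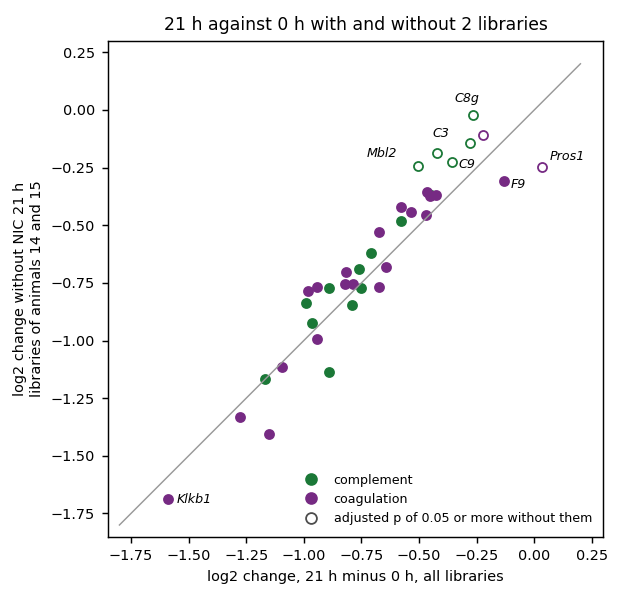
Log2 change of each member in the 21 h cultures against the 0 h cultures, with all libraries on the horizontal axis and without the 21 h libraries of NIC animals 14 and 15 on the vertical axis, with the diagonal as a line. C3, C9 and Mbl2 lie above the diagonal (C3 at -0.42 and -0.19), and Pros1 and F9 lie below it (Pros1 at 0.04 and -0.25).

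The other genes of the complement and coagulation systems did not show this uniform direction. Of 61 tested, 16 were higher and 23 lower at 21 h, where 29.0% of all genes were higher and 21.6% lower, and the median was -0.08. The share of 16 of 61 was near that of all genes. The lists were written by function, with earlier results of these data known for members and lists alike. The contrast between them describes these choices and was not tested. Among the lower genes were Pzp (a broad protease inhibitor) at -1.26 (SE 0.12), C1s1 and C1rl (C1s and a C1r-like protease) at -0.91 (SE 0.09) and -1.57 (SE 0.16), and Cpn2 (a subunit of the enzyme that inactivates complement anaphylatoxins) at -2.12 (SE 0.21). Among the higher genes were Anxa2 (annexin A2, a cell surface receptor for plasminogen and its activator) at 4.42 (SE 0.47), Itgam (a chain of complement receptor 3 on myeloid cells) at 2.37 (SE 0.22), C1qa (a chain of C1q, made by macrophages) at 1.92 (SE 0.29) and C3ar1 (the receptor for C3a) at 1.82 (SE 0.31). The Kupffer cell and macrophage markers, which include C1qa, summed to 189 to 1593 ppm at 21 h, against 76.2 to 240.0 ppm at 0 h. Single markers went both ways. Without the 21 h libraries of NIC animals 14 and 15, 5 of 11 were higher and 4 lower, where 27.0% and 22.4% of all genes were. Cd68 was then at 3.72 and Marco at 2.78, while Vsig4 was at -2.17 and Cd5l at -2.11. The part of macrophages in the rise of the higher pathway genes was not tested. In the fibrinolysis list 4 of 5 genes were higher with all libraries, where 29.0% of all genes were. When the 21 h libraries of NIC animals 14 and 15 were left out, 16 of the 61 genes were higher and 28 lower (median -0.24), where 27.0% of all genes were higher and 22.4% lower. Itgam was then at 1.94 (SE 0.19), C1qa at 1.38 (SE 0.26), C3ar1 at 1.17 (SE 0.24) and Anxa2 at 4.30 (SE 0.47), and 4 of 5 fibrinolysis genes were higher.

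The decline was then compared between fathers. In NIC offspring 30 members were lower at 21 h (median -0.72), where 19.5% of all genes were, and in TA offspring 27 (median -0.74), where 12.9% were. Leaving out the 21 h libraries of animals 14 and 15 gave 22 lower members in NIC offspring (median -0.61), where 15.4% of all genes were lower. For the interaction of father and time, limma called 0 of 38 members, where 0.198% of all genes were called. An unadjusted p under 0.05 was found for 0 members and for 1608 of all 11135 genes. The member estimates ran from -0.42 to 0.38, with a median of -0.04 beside -0.17 over all genes. Without these 2 libraries the interaction again called 0 members, where 0.0548% of all genes were called, and the member median was 0.11. There 1 member had an unadjusted p under 0.05, beside 154 higher and 1046 lower of 10954 genes. A difference between fathers in this decline was not detectable with 5 animals per father.

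The 21 h none cultures held still less of these messages in some animals. In the 21 h none cultures against the 21 h cultures, 9 of 38 members were lower and 0 higher, where 3.40% of all genes were lower. The member median was -0.28, beside 0.31 over all genes. The members were Mbl1 at -0.65, F5 at -0.65, Proz at -0.57, Klkb1 at -0.49, Plg at -0.42, C2 at -0.40, Proc at -0.37, C8a at -0.33 and F10 at -0.27. Mbl1 had 43.1, 116 and 229 ppm in the 21 h none cultures, against 118, 175 and 286 ppm at 21 h (SE 0.17, adjusted p = 0.0054), lower in 7 of the 9 animals with both. Proz had 30.3, 93.6 and 168 ppm in the 21 h none cultures, against 78.1, 133 and 199 ppm at 21 h (SE 0.15, adjusted p = 0.0062), lower in 8 of 9. Within animals Mbl1 changed by -0.68 ± 0.80 and Proz by -0.65 ± 0.83 (SD, n = 9), while the limma SE pools the spread of all libraries. Over the 9 animals with both cultures, the hepatocyte markers changed by -0.37 ± 0.59 on average (SD). The complement mean changed by -0.29 ± 0.50 and the coagulation mean by -0.31 ± 0.41. The part of a shared loss of hepatocyte RNA in the members' change was not tested. The smallest p among members above 0 belonged to Cfi, at 0.07 (SE 0.10), and F11, at 0.03 (SE 0.20).

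These calls depended on 2 TA animals and on the fit. With all animals kept, limma called 0 members when only the 2 cultures were fitted. It called 5 with no replicate block and 5 with no filter. The 21 h none libraries of TA animals 1 and 2 had arm means of 7.21 and 7.17 for complement and 7.30 and 7.55 for coagulation on the log2(ppm + 1) scale, against 7.58 to 8.28 and 7.87 to 8.46 in TA animals 3 to 5. Without them, 0 of 38 members passed limma. In TA animals 1 and 2 the hepatocyte markers changed by -1.22 and -1.09 on average between the 2 cultures. The complement means there changed by -1.02 and -1.02 and the coagulation means by -0.98 and -0.93. Leaving out single animals gave 3 calls without TA animal 1 or 2, 5 without NIC animal 11 or 12, 14 without NIC animal 13, 17 without TA animal 5 and 18 without NIC animal 15. Without the 21 h libraries of NIC animals 14 and 15 there were 19 calls, where 4.51% of all genes were lower. The animals of date A alone gave 25 calls and those of date B alone 0. By limma 0 members were lower in NIC offspring alone (median -0.06), where 1.50% of all genes were. There 1 member was higher and 1 lower at an unadjusted p under 0.05, as were 2656 of 11135 genes in either direction. In TA offspring alone 20 were lower (median -0.48), where 2.36% of all genes were. In NIC animal 15 the mean change was 0.57 for complement and 0.13 for coagulation. Without the 21 h libraries of animals 14 and 15 the NIC median was -0.13, again with 0 calls. Then 4 members were lower at an unadjusted p under 0.05, as were 333 of 10954 genes. The test of that difference, father by culture, called 0 members in limma, where 0% of all genes were called, although 16 were higher and 1 lower at an unadjusted p under 0.05, as were 17.4% of all genes in either direction. Without the 21 h libraries of animals 14 and 15 it called 0, with 8 higher at an unadjusted p under 0.05, as were 359 of 10954 genes. That test called 5 members without NIC animal 12, 1 without NIC animal 13 and 2 in date B alone. Among the 61 other pathway genes, 2 were higher (C1qbp and Vkorc1l1), where 23.1% of all genes were, and 13 lower, including C1qa at -1.43, Serpind1 (heparin cofactor II) at -0.75, Serpinc1 (antithrombin) at -0.37 and Pzp at -0.45.

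NIC and TA offspring were next compared over all 60 libraries, the study's main question. By limma 0 of 38 members passed, where 0.198% of all genes did, and 6 had an unadjusted p under 0.05, all higher in NIC, a share near the 14.6% of all genes with such a p in either direction. Proc differed by 0.21 (SE 0.08, adjusted p = 0.228) and Pros1 by 0.28 (SE 0.11, adjusted p = 0.242). The other 4 were Hrg at 0.33, F7 at 0.25, F13b at 0.23 and C2 at 0.21. The lowest p below 0 belonged to C3, at -0.16 (SE 0.10, adjusted p = 0.440), and Fgg, at -0.10 (SE 0.11, adjusted p = 0.655). In the exact permutation of animal means within dates, which has 14400 arrangements and is two-sided, 3 of 38 members had a p under 0.05 before adjustment: Pros1 at 0.0246, F9 at 0.0314 and C3 at 0.0474. This permutation was run on members only, so no share over all genes is given.

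By culture, 0 members passed limma at 0, 1 or 3 h or at 2 h with or without dexamethasone, and 0% of all genes passed in each of these 5 comparisons. At an unadjusted p under 0.05 there were 0 members at 0 h, 0 at 1 h, 1 at 3 h (Hrg, 0.68), 0 at 2 h with dexamethasone and 2 at 2 h without it (C3 at -0.65 and C4b at -0.76, both lower in NIC). Of all 11135 genes, 148, 92, 337, 178 and 323 had such a p in these 5 comparisons, in the same order. For the 2 h cultures with dexamethasone, edgeR on the recovered reads also called 0 members, and called 1 of 8621 genes. In that test 1 member and 655 of the 8621 genes had an unadjusted p under 0.05. At 21 h 0 members passed limma, where 5.34% of all genes did. There Masp1 (0.65), F11 (0.80), Proc (0.39) and Pros1 (0.51) were higher and C8g (-0.43) and C3 (-0.41) lower at an unadjusted p under 0.05, as 22.4% of all genes were in either direction. The highest Masp1, F11, Pros1 and Proc values, the last at 273 ppm, and the lowest C3 and C8g values at 21 h all came from NIC animal 14 or 15. Without these 2 libraries 0 members passed, where 0.329% of all genes did. F7 (0.67), Proc (0.35) and Fetub (0.33) were then above 0 at an unadjusted p under 0.05, as were 250 of 10954 genes, with 1346 below 0.

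In the 21 h none cultures the fathers differed for some members. There 7 of 38 were higher in NIC offspring and 0 lower, where 1.03% of all genes were higher. The member estimates were above 0 in 37 of 38, with a median of 0.46, beside -0.47 over all genes tested. When libraries were rescaled to a common median ratio, the median of all genes moved to -0.20 and 13 members were higher. The members stood above the median of all genes by 0.93 as deposited and by 0.97 after rescaling. Rescaling multiplies all genes of a library by the same factor, so these values were bound to be close. Their closeness does not test the difference between fathers.

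The NIC libraries came from animals 11, 11, 12, 13 and 15 and the TA libraries from animals 1 to 5, and values are given in that order. Proz had 119, 166, 108, 79.3 and 168 ppm in NIC cultures, against 30.3, 53.7, 76.3, 49.5 and 128 ppm in TA cultures. Only the TA library of animal 5 reached the NIC range, and the log2 difference was 1.01 (SE 0.23, adjusted p = 0.0176). Proc had 109.8, 184, 129, 156 and 118 ppm in NIC cultures, against 69.1, 81.0, 80.5, 104 and 109 ppm in TA cultures. It was the 1 member without overlap, where 0.368% of all genes had every NIC library above every TA library, and it differed by 0.66 (SE 0.16, adjusted p = 0.0282). In the exact permutation of libraries within dates, with 120 arrangements, Proc and Proz reached the smallest two-sided p it can give, 0.0167. Before adjustment 6 of 38 members were under 0.05. The permutation treated the 2 libraries of NIC animal 11 as separate units. It was run on members only, so no share over all genes is given.

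The other 5 were F13b at 0.85, Mbl2 at 0.81, C8a at 0.74, C4bp at 0.71 and C2 at 0.65. F13b had 116, 201, 114, 95 and 168 ppm in NIC cultures, against 33.5, 69.6, 113, 69.9 and 117 ppm in TA cultures. Mbl2 had 448, 488, 404, 344 and 479 ppm in NIC cultures, against 186, 209, 398, 237 and 234 ppm in TA cultures. For both genes 1 or more TA libraries lay within the NIC range. Among TA libraries animals 1 and 2 were again low, and C8a and C4bp of TA animal 5, at 425 and 396 ppm, were as high as in NIC animals.

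**Figure D5:**
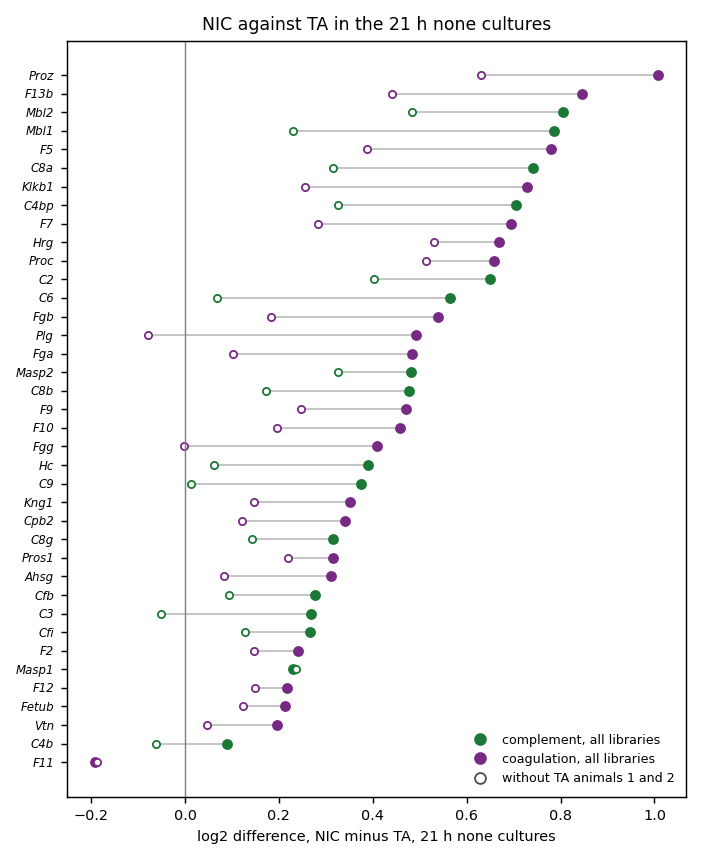
Log2 difference, NIC minus TA, of each member in the 21 h none cultures, with all libraries and without the libraries of TA animals 1 and 2. With all libraries 37 of 38 points lie above 0 with a median of 0.46, and without the 2 libraries the median is 0.16.

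Without the 21 h none libraries of TA animals 1 and 2, 0 of 38 members passed limma and the median was 0.16. Proc then differed by 0.51 (SE 0.18) and Proz by 0.63 (SE 0.24), each with an adjusted p of 0.593. Leaving out single animals gave 0 calls without TA animal 1, 2 or 4 or NIC animal 11 or 15, and 11, 12 and 23 calls without NIC animal 12, NIC animal 13 and TA animal 5. The animals of date A alone gave 0 calls and those of date B alone 1. Hepatocyte markers moved with the members: 9 of 9 were above 0 in NIC against TA, 2 of them passing. Their sum was 100420 to 161910 ppm in NIC cultures, against 71908 to 130870 ppm in TA cultures, with the lowest in TA animal 1. Their part in the difference was not tested.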

How the data were processed

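RNA-Seq libraries of hepatocytes were made by the authors from rRNA-depleted total RNA with a strand-specific protocol and aligned to mm10 with Bowtie2 (per the labels' processing notes, which also name DESeq2); the counter and annotation are not given in the sources used here. The deposited table gives 1 value per gene and library, described as ppm by the authors. In 56 libraries the deposited values behave as TPM: their steps differ between genes, so the depth is unknown. In the 4 libraries of the 2 h cultures with dexamethasone the deposited values are CPM: 100% of values were whole multiples of 1 read (tolerance 0.05), giving 1530794 to 2793007 reads.

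Groups came from the labels, and animals and the 4 preparation dates (A to D) from the study's sample list. NIC animal 11 is listed with 2 libraries of the 21 h none cultures (1 from date B) and NIC animal 14 with 0, so that 9 animals had both 21 h cultures. The title of the date B library carries the number that would follow those of animal 14. With the block set by title, 8 members in place of 9 were lower in the 21 h none cultures against 21 h and 8 in place of 7 higher in NIC among the 21 h none cultures, and the counts of 33 lower at 21 h and of 0 at 1 h, at 3 h, in both interactions and between fathers over all libraries did not change. Each group is 1 inbred strain and sex, with 1 animal per litter.

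Tests were run in R 4.3.3 with limma 3.58.1. The values tested were log2(ppm + 1) of 11135 genes with a mean above 1 ppm, with an intensity trend, a term per father and culture, date B against A, and the animal as a random block (consensus correlation 0.108; 0.0974 in the model with a single father term), Benjamini-Hochberg over all genes, threshold 0.05. Fold changes are on the log2(ppm + 1) scale, which understates changes of low genes. edgeR 4.0.16 was run on the recovered reads of the 4 libraries. Single members were also tested by exact permutation. Alternatives were other pseudocounts, filters, a rescaling, no block, no trend, fewer conditions, single dates and leaving out animals. The scripts were tested on simulated data. The members and lists were chosen with earlier results of these data known. All 38 members could be named; per-library values are given for those of smallest p in each comparison (4 per direction at 21 h, 2 elsewhere), the fibrinogen chains and C3. Values of F9, Pros1, F13b and Mbl2, and the 2 sets of libraries left out, were chosen after their values were seen.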

Additional observations from a re-analysis of the deposited data

Results flagged for a closer look

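Of 36 groups of 5 libraries or animals examined for a single distant value, 4 had one, and chance gives about 1 in 20. Vitronectin (Vtn) fell most in NIC animal 15, with a log2 change of -1.08 at 21 h, apart from the other 4 NIC animals. Fibrinogen stood out in TA animal 4, whose changes were -0.74 for Fgb and -0.98 for Fgg, the lowest of the 5 TA animals for both chains. In NIC animal 14 the mean of the 22 coagulation genes at 0 h was 9.19 on the log2(ppm + 1) scale, above the other 4 NIC animals. The causes were not tested.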

How the results depend on the processing

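The decline at 21 h had 28 to 37 lower members under all alternatives (32 to 34 leaving out single animals, 32 with no replicate block). The complement median stayed between -0.87 and -0.64. The coagulation median stayed between -0.94 and -0.60, with -0.94 from the 21 h none cultures in place of the 21 h cultures. Directions turned for members that had not passed: Pros1 was -0.26 without the 3 shallowest NIC 21 h libraries, -0.26 in date A alone, -0.25 without NIC animals 14 and 15 at 21 h, -0.25 with the 21 h none cultures and -0.076 to 0.12 leaving out single animals, C8g was 0.00507 in date A alone and F9 0.053 in date B alone. With only the 2 conditions fitted, 1 member passed at 1 h and 2 at 3 h. The 9 lower members of the 21 h none cultures against 21 h became 5 with no filter, 27 after rescaling, 5 with no replicate block, 15 without the 3 shallowest libraries, 0 with the 2 conditions alone, 25 in date A, 0 in date B, 19 without NIC animals 14 and 15, 0 without TA animals 1 and 2, and 3 to 18 leaving out single animals; in date B, Proz was 0.033 and Plg 0.16. Father by culture gave 2 calls in date B and 0 to 5 leaving out animals. The 7 members higher in NIC among the 21 h none cultures became 13 after rescaling, 14 without the 3 shallowest libraries, 14 without NIC animals 14 and 15, 2 with no intensity trend, 0 in date A, 1 in date B, 0 without TA animals 1 and 2, and 0 to 23 leaving out animals. The causes were not tested. Rescaling moved the median of all genes by more than 0.1 in 4 comparisons: to 0.10, against 0.31 as deposited, in the 21 h none cultures against 21 h, to -0.20, against -0.47, between fathers there, to -0.01, against -0.17, in father by time and to -0.11, against -0.28, in father by culture. Depth is unknown for 56 libraries, so changes of the lowest members, Pros1 and F11, carry an error that cannot be split into counting and biology.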
